A study of Mus musculus with 6 samples.

Results

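A set of 10 genes that are little studied in intestinal Notch signalling is described across 6 expression arrays of mouse small intestinal stem cells: Hpd, Ptpro, Nrep, Gpr146, Selenom, Tspan4, Pcolce, Adamts9, Snx24 and Hao2. They are 10 of the 18193 genes measured, and were chosen from their difference between DBZ and vehicle arrays and its stability. That difference is therefore given for them as a description, with no test. All 10 symbols were found on the arrays, in 18 probe sets (groups of probes for 1 transcript). For each gene the probe set with the highest mean level stands for it, and the others are reported beside it.

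In all, 3 arrays held RNA from mice given DBZ and 3 held RNA from mice given vehicle (DMSO), each array with the cells of 1 mouse, collected at 24 h. All mice carried the Lgr5-EGFP-IRES-creERT2 allele, in which the promoter of Lgr5, a marker of crypt base stem cells, drives a green fluorescent protein, and cells with high fluorescence were sorted. The titles put the arrays in their groups, while another label names DMSO for all of them. Age and sex of the mice are not used here, and neither is the DBZ dose, whose unit in the labels cannot be right as written.

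DBZ inhibits gamma-secretase, the protease that cuts Notch receptors and so frees the intracellular part that acts with the DNA-binding protein RBPJ in the nucleus. In the crypt, Notch activity keeps progenitors from secretory fates, and when it is blocked cells turn towards goblet, Paneth and enteroendocrine fates under the transcription factor Atoh1. The 10 genes belong to no single pathway. They comprise metabolic enzymes (Hpd, Hao2), a selenoprotein of the endoplasmic reticulum (Selenom), proteins of the cell surface (Ptpro, Gpr146, Tspan4), genes linked to extracellular matrix and scarring (Pcolce, Adamts9, Nrep) and a membrane trafficking protein (Snx24).

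Known Notch genes followed the titles of the arrays. Olfm4, a stem cell gene that Notch switches on, averaged 28.1 ± 8.81 intensity units in DBZ arrays and 4346 ± 781 in vehicle arrays, and Atoh1 averaged 2810 ± 416 and 744 ± 128 (SD, n = 3 each; limma, Benjamini-Hochberg adjusted p = 0.00042 and 0.0097). Hes1, a repressor that Notch induces, averaged 213 ± 38 and 387 ± 50.5 (SD, n = 3 each; limma, adjusted p = 0.039). Olfm4 was called with any 1 array left out, Atoh1 was not without vehicle replicate 3 (limma, adjusted p = 0.061), and Hes1 was not when DBZ replicate 3 or any 1 vehicle array was left out (adjusted p up to 0.13). Lgr5 differed by a log2 value of -0.08 (95% interval -0.37 to 0.21), in cells sorted on that gene. Array medians lay between 44.9 and 46.3, and a value near or below them is called dim here. The median gene of the table, after 1 probe set was taken per gene, was brighter, at 114 units. The actin control probes, read for RNA integrity, had a 3' to 5' ratio of 1.51 to 1.57 in DBZ arrays. In vehicle replicates 1, 2 and 3 it was 2.22, 1.61 and 1.69. The Gapdh ratio was 1.05 to 1.09 in DBZ arrays and 1.42, 1.11 and 1.07 in vehicle replicates 1, 2 and 3. The part of these ratios in any result was not tested. Markers of other cell types were present in both groups. The samples are called biological replicates, and their number sets how precise any value here can be.

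Upstream sequences are shown for the genes at the extremes of the set. Promoter windows from RefSeq (build GRCm38.p6) matched 8 of the 10 genes by symbol, with 11 windows. The 250 bases before the start were read for the RBPJ core TGGGAA and for CAGCTG and CAGATG, E-boxes of the kind that Atoh1 can bind (complement CATCTG), on both strands. The complement of TGGGAA is TTCCCA, and that of CAGCTG is the same word. The sequences are given 5′ to 3′ for the lowest gene, Hao2, Hpd with its even values, the highest, Ptpro, and the gene whose window held all 3 motifs, Pcolce. Capitals mark the motifs.
Hao2, chr3:98893231-98893480, minus strand: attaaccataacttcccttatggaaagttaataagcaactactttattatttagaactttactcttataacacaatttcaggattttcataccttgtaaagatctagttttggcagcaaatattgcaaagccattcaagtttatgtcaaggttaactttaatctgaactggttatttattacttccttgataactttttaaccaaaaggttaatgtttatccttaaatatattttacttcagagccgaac
Hpd, chr5:123182724-123182973, minus strand: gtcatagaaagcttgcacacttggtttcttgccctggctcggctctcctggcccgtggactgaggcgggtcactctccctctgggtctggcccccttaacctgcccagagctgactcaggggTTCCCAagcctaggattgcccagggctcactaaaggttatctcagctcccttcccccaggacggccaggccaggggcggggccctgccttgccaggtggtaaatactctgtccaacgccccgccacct
Ptpro, chr6:137252049-137252298, plus strand: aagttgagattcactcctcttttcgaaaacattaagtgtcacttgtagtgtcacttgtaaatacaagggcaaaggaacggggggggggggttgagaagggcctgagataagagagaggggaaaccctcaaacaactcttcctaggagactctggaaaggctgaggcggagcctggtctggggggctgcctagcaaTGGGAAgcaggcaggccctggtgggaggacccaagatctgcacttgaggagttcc
Pcolce, chr5:137611405-137611654, minus strand: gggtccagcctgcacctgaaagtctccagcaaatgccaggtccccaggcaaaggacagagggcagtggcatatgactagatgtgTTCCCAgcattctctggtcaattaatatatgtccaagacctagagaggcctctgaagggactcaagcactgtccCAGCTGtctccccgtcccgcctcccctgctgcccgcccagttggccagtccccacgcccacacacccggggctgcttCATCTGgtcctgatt

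TGGGAA, on either strand, was in the windows of 4 of the 8 genes, against 24.1% of the 27025 genes with a window and 21.6% of all windows. It lay 128 bases before the start of Hpd, 55 before that of Ptpro, 166 before that of Pcolce, and 170 and 197 before the starts of Tspan4. CAGCTG was in 3 of 8 (Pcolce, Gpr146 and Adamts9), against 14.7% of genes, and CAGATG in 2 of 8 (Pcolce and Selenom), against 16.3%. The Hao2 window held none of the 3 motifs, and none of the motifs overlapped another. The Hao2 window also stood apart in base composition, with 28.4% G and C, a value that only 0.956% of all windows fell below, while the windows of the other 7 genes had 50.4% to 71.2% and the median window 52.4%. These matches are letters in a short window and are not evidence of binding.

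Of the 10 genes, 8 were higher and 2 lower in DBZ arrays, and for each of them the 3 DBZ values lay apart from the 3 vehicle values. By limma at an adjusted p under 0.05, 5.34% of all genes were called (3.82% higher and 1.52% lower), and the groups did not overlap for 33.2%. All 10 genes were called, which follows from how they were chosen. The differences ran from -2.98 to 1.97 on the log2(intensity + 16) scale, which understates the change of dim genes. The plot of intensities by array shows the separation gene by gene.

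Each gene was also set beside a list of its family or pathway. Over these lists 205 genes other than the 10 were measured. Of these 16 rose and 2 fell, or 8.78%, where 5.34% of all genes were called. These calls depend on single arrays: 33, 3 and 4 were made without DBZ replicate 1, 2 and 3, and 0, 0 and 1 without vehicle replicate 1, 2 and 3 (limma; 54, 55 and 44 with an unadjusted p under 0.05 without those vehicle arrays). None of the 18 was called in all 6 of these fits, so each family gene named as risen or fallen in what follows lost its call with at least 1 array left out. Col1a2 kept it in 4 of the 6 fits and Serpinh1 in 3, while Dao and Adamts5, both with dim means, kept it in 0. Hpdl, Ptprr, Ptprs, Tgfbr2, Tgfbr3, Selenoi, Msrb1, Tspan13 and Tspan31 kept it only in the fit without DBZ replicate 1. Of 118 marker genes of cell types 31 were called, and 43, 18 and 17 without DBZ replicate 1, 2 and 3, and 2, 2 and 5 without vehicle replicate 1, 2 and 3 (limma).

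**Figure D1:**
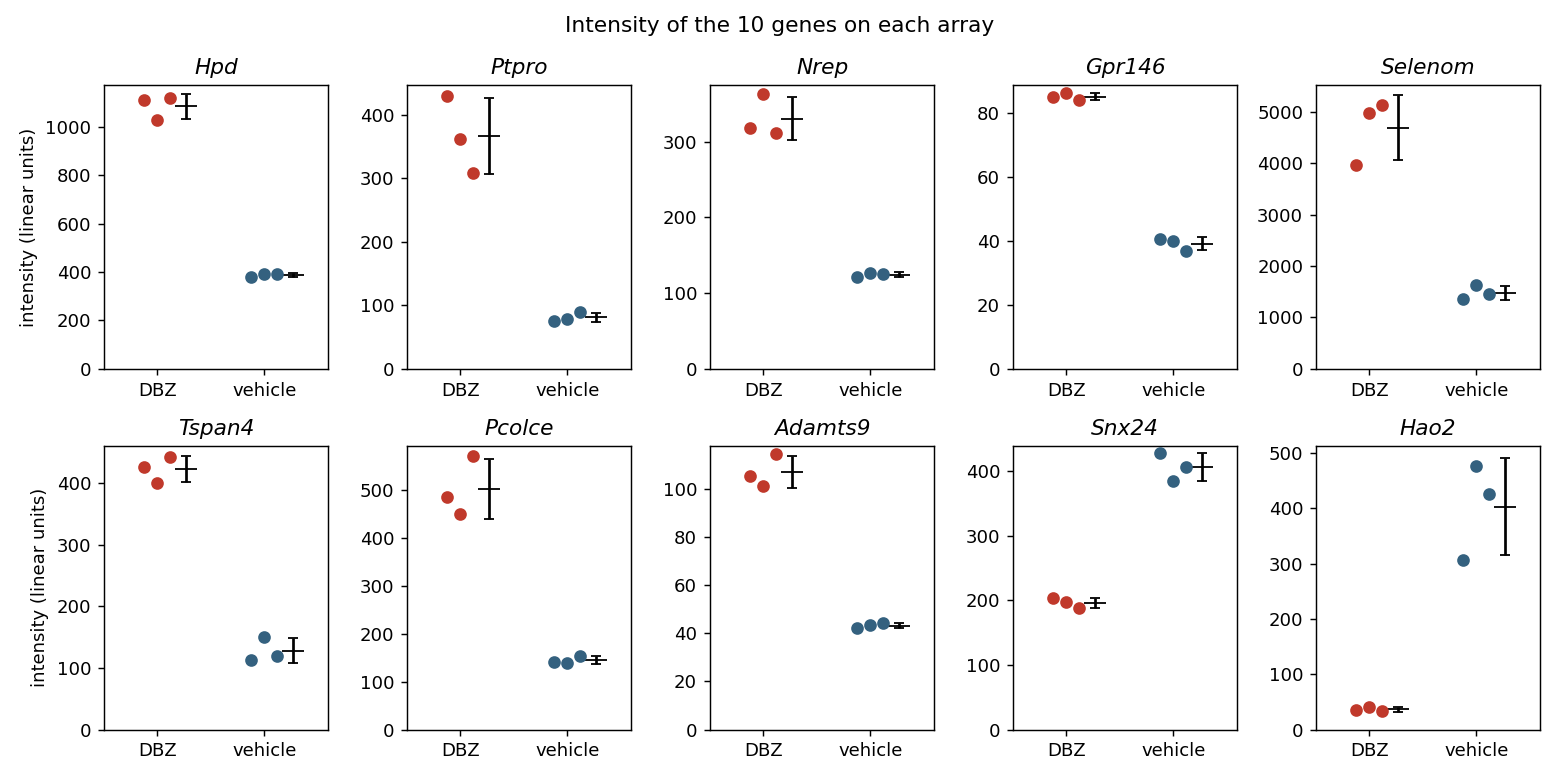
Intensity (linear units, axes from 0) of the 10 genes on each array, with 1 point per array and the mean ± SD of the 3 arrays of a group beside them. DBZ and vehicle arrays do not overlap in any panel, with Hao2 and Snx24 lower in DBZ arrays and the other genes higher.

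Hao2 had the largest difference of the 10. It encodes a peroxisomal oxidase of 2-hydroxy acids. Its intensities were 35.2, 41.4 and 33 in DBZ replicates 1, 2 and 3, against 306.8, 477 and 425 in vehicle replicates 1, 2 and 3. All 3 DBZ values were dim, below the median of their arrays, and the vehicle values were spread more widely than those of any other member on the log2 scale (SD 0.32). The log2 difference was -2.98 ± 0.16 (SE, n = 3 per group), and no fold is given, because the DBZ values are dim and no background level was used here. The size depends on the pseudocount, and was -3.41 with one of 1 and -2.20 with one of 64. Hao2 has 1 probe set, so no second measurement of it exists on these arrays.

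Beside Hao2 stands a list of 13 other peroxisomal oxidases and enzymes of 2-hydroxy acids, of which 11 were measured. Of these 1 fell and 0 rose, against 1.52% and 3.82% of all genes. The gene that fell was Dao, the oxidase of D-amino acids, at 30.8 ± 1.36 in DBZ arrays and 48.3 ± 6.77 in vehicle arrays (SD, n = 3 each), a log2 difference of -0.45 (limma, adjusted p = 0.047). In 9 of the 11 the difference was negative, with a median of -0.29, where the median of all genes was -0.02. Enterocyte markers summed to 61097 to 79654 units in DBZ arrays and 79175 to 82598 in vehicle arrays. None of these 9 measured markers was called by limma (3 had an unadjusted p under 0.05). The difference was negative in all 9, with a median of -0.29. Their part in the level of Hao2 was not tested.

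Hpd was higher in DBZ arrays, with little spread. It encodes 4-hydroxyphenylpyruvate dioxygenase, which carries out the step of tyrosine breakdown that makes homogentisate, and is best known from liver. The arrays read 1109.7, 1026 and 1116 in DBZ replicates 1, 2 and 3, against 380.4, 391 and 393 in vehicle replicates 1, 2 and 3. Neither group spread by more than a small part of the gap between them. Hpd averaged 1084 ± 50.4 in DBZ arrays and 388 ± 6.88 in vehicle arrays (SD, n = 3 each), a ratio of 2.79 and a log2 difference of 1.44 ± 0.06 (SE). Its spread within groups was smaller than that of all but 11.8% of genes.

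Few other genes of tyrosine breakdown passed the test. Of 8 other listed genes 7 were measured, 0 rose and 1 fell (limma; 3 had an unadjusted p under 0.05), and their median difference was 0.15. The gene that fell was Hpdl, the paralogue of Hpd, with 18.9 ± 5.35 in DBZ arrays and 35.9 ± 2.20 in vehicle arrays (SD, n = 3 each; log2 difference -0.58, limma, adjusted p = 0.048), all dim. Hgd, which acts on the product of Hpd, was dim in both groups, at 43 ± 6.74 and 43.5 ± 1.43, with a log2 difference of -0.02 (95% interval -0.25 to 0.21). It was chosen after its values were seen, as the enzyme next to Hpd.

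Selenom was higher in DBZ arrays as well. It encodes a small selenocysteine protein with a thioredoxin-like fold that resides in the endoplasmic reticulum. Its values were 3962, 4971 and 5134 in DBZ replicates 1, 2 and 3, against 1367, 1631 and 1449 in vehicle replicates 1, 2 and 3. DBZ replicate 1 was the lowest of its group and still far above the highest vehicle array. The means were 4689 ± 635 and 1482 ± 135 (SD, n = 3 each), with a ratio of 3.16 and a log2 difference of 1.65 ± 0.12 (SE). Selenom changed by less than 1 within-group SD of its own (0.17) under all 16 alternatives, and was the only one of the 10 to do so. This yardstick is looser for a gene with more spread. The differences of Selenom ran from 1.58 to 1.76. Those of Hpd, with an SD of 0.05, ran from 1.34 to 1.48 and moved by more than 1 SD in 2 alternatives.

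Of the 22 selenoprotein genes measured besides Selenom, 2 rose and 0 fell, with 10 at an unadjusted p under 0.05 and a median of -0.01. The 2 were Selenoi, an enzyme of phosphatidylethanolamine synthesis, at 1322 ± 46.5 in DBZ arrays and 901 ± 88.7 in vehicle arrays, and Msrb1, which repairs oxidised methionine, at 764 ± 81.3 and 556 ± 17.5 (SD, n = 3 each; limma, adjusted p = 0.031 and 0.047). Goblet cell markers summed to 137507 to 171145 units in DBZ arrays and 109827 to 118028 in vehicle arrays, with 4 of 10 risen and none of the 10 below the median gene. All 10 differences were positive, and 9 had an unadjusted p under 0.05 (limma). As each array measured all sorted cells together, more cells of a type and more RNA per cell cannot be told apart, here and below. The part of goblet cells in the value of Selenom was not tested.

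Ptpro had the largest positive difference of the 10. It encodes a receptor-type tyrosine phosphatase first known from the podocytes of the kidney. Its intensities were 429, 362 and 308 in DBZ replicates 1, 2 and 3, against 76.1, 77.9 and 89.4 in vehicle replicates 1, 2 and 3. The DBZ arrays were spread over a range wider than the whole level in vehicle arrays. The log2 difference was 1.97 ± 0.13 (SE, n = 3 per group) and the ratio of means 4.52. A second probe set for Ptpro read 75.9, 56.7 and 46.3 in DBZ arrays, against 21.5, 17.5 and 21.4 in vehicle arrays, which is a log2 difference of 1.05 ± 0.15 (SE, from the fit over all probe sets). Both probe sets were highest in DBZ replicate 1 and lowest in DBZ replicate 3.

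Among 16 other receptor-type tyrosine phosphatases 3 rose and 0 fell, with a median of 0.05. Ptprr rose by 0.87 and Ptprs by 0.53 on the log2 scale (limma, adjusted p = 0.0495 and 0.026), and Ptprm, outside the naming rule, by 0.49. Enteroendocrine markers summed to 4095 to 9298 units in DBZ arrays and 2254 to 2806 in vehicle arrays, with 3 of 10 risen and 5 of 10 dimmer than the median gene. All 10 differences were positive, and 9 had an unadjusted p under 0.05 (limma). Chgb differed most in this list, and without it the sums were 2025 to 2905 in DBZ arrays and 907 to 1125 in vehicle arrays. The lowest DBZ sum of the whole list was that of replicate 1, where Ptpro was highest. Neurod1 of this list was among the 2 genes nearest to Ptpro in pattern, a measure set chiefly by the size of the difference. The part of these cells in the value of Ptpro was not tested.

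Tspan4, a tetraspanin that takes part in forming the membrane vesicles called migrasomes, had values of 426, 399 and 441 in DBZ replicates 1, 2 and 3, against 113, 150.7 and 120.0 in vehicle replicates 1, 2 and 3. Here the vehicle arrays were the more uneven group, with replicate 2 above the others. The log2 difference was 1.61 ± 0.11 (SE, n = 3 per group). Of 28 other tetraspanins 2 rose and 0 fell, with a median of 0.00. They were Tspan13, at 4080 ± 1441 in DBZ arrays and 1689 ± 104 in vehicle arrays, and Tspan31, at 1991 ± 59.8 and 1621 ± 23.3 (SD, n = 3 each; limma, adjusted p = 0.049 and 0.043). Cd151, a tetraspanin and the nearest measured gene on one side of Tspan4, differed by -0.01 (95% interval -0.21 to 0.20).

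Gpr146, a receptor of the rhodopsin class that has been linked to cholesterol levels in mice, was higher by a value that depends on its probe set. The chosen probe set read 85.1, 86.3 and 84 in DBZ replicates 1, 2 and 3, against 40.7, 39.9 and 36.8 in vehicle replicates 1, 2 and 3. The vehicle values were below the array medians, and the log2 difference was 0.88 ± 0.06 (SE, n = 3 per group). A second probe set of almost equal mean log2 level (6.21, against 6.22 for the chosen one) read 62.8, 56.4 and 60 in DBZ arrays, against 68.9, 46.1 and 56.3 in vehicle arrays. Its groups overlapped and its difference was 0.06 ± 0.12 (SE). The remaining pair of probe sets was dimmer still, with differences of 0.01 ± 0.06 and 0.19 ± 0.08 (SE). As the mean of its 4 probe sets Gpr146 stood at 0.29, so the value given for this gene is that of 1 probe set of 4.

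Of the 44 other measured class A receptors named Gpr, 42 had a mean below that of the median gene. None was called by limma (3 had an unadjusted p under 0.05), and their median was -0.05. The smallest p was that of Gpr85, with 46 ± 4.16 in DBZ arrays and 33.1 ± 3.07 in vehicle arrays (SD, n = 3 each; limma, adjusted p = 0.065).

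Pcolce encodes an enhancer of the protease that trims the carboxy-terminal propeptide from fibrillar procollagens. Its values were 484, 450.4 and 570.3 in DBZ replicates 1, 2 and 3, against 142, 139 and 154 in vehicle replicates 1, 2 and 3. The groups lay far apart and the highest array of each was replicate 3. The log2 difference was 1.68 ± 0.10 (SE, n = 3 per group). The other probe set of Pcolce read 213, 214 and 277 in DBZ arrays, against 77, 83 and 96 in vehicle arrays, with a difference of 1.30 ± 0.12 (SE). Both probe sets thus placed every DBZ array above every vehicle array.

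Of 18 other measured genes of fibrillar procollagens and their processing 5 rose and 0 fell, where 3.82% of all genes rose, and their median was 0.41. Serpinh1, the collagen chaperone of the endoplasmic reticulum, rose by 1.49 ± 0.16, and Col1a2, a chain of type I collagen, by 1.24 ± 0.14 (SE, n = 3 per group; limma, adjusted p = 0.019 and 0.021). Mesenchymal markers summed to 51101 to 59435 units in DBZ arrays and 24037 to 34460 in vehicle arrays. Of these 18 markers 9 rose, 0 fell and 1 was dimmer than the median gene. The difference was positive in 17 of the 18, and 15 had an unadjusted p under 0.05 (limma). Sorting was on Lgr5 fluorescence, and the part of mesenchymal cells in the values of Pcolce, Adamts9, Nrep and Tspan4 was not tested.

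Adamts9, a secreted metalloprotease that cleaves proteoglycans such as versican, read 105, 101 and 114 in DBZ replicates 1, 2 and 3, against 42, 43.3 and 44.2 in vehicle replicates 1, 2 and 3. The vehicle values were dim. The log2 difference was 1.05 ± 0.06 (SE, n = 3 per group). Its other probe sets went apart: one read 21.8, 19.3 and 20.9 in DBZ arrays, against 13.1, 11.7 and 14.7 in vehicle arrays, with a difference of 0.33 ± 0.06, while the third was at -0.13 ± 0.08 with overlapping groups (SE). The mean of the 3 probe sets was 0.42. Of 14 other ADAMTS proteases, 12 of them dimmer than the median gene, 1 rose and 0 fell. This was Adamts5, a cartilage aggrecanase, at 45.2 ± 3.88 in DBZ arrays and 28.2 ± 4.26 in vehicle arrays (SD, n = 3 each; limma, adjusted p = 0.046).

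Nrep, also called P311, is a small intracellular protein that raises the translation of TGF-beta ligands in wound fibroblasts. Its values were 318, 363 and 311 in DBZ replicates 1, 2 and 3, against 121, 127 and 125 in vehicle replicates 1, 2 and 3. This probe set is of a type whose probes may also match other transcripts. The second one, of the ordinary type, read 306, 346 and 256 in DBZ arrays, against 154, 139 and 108 in vehicle arrays. The log2 differences were 1.30 ± 0.08 and 1.09 ± 0.15 (SE, n = 3 per group), and in both probe sets DBZ replicate 2 was the highest array.

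The TGF-beta list held 17 other measured genes, of which 3 rose and 0 fell, with a median of 0.04. The rises were in receptors and a matrix reservoir protein: Tgfbr2, the type II receptor, by 0.95, Tgfbr3, the co-receptor betaglycan, by 0.78 (limma, adjusted p = 0.047 and 0.042), and Ltbp1, which binds latent TGF-beta and falls outside the naming rule, by 0.54. The ligand genes Tgfb1, Tgfb2 and Tgfb3 were not among those called. Nrep and Snx24 lie on chromosome 18, and no sequence is shown for them.

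Snx24 was the other gene with lower values. It is a small sorting nexin, of the proteins that bind membrane phosphoinositides through a PX domain. It read 203, 198 and 188 in DBZ replicates 1, 2 and 3, against 428, 385 and 406 in vehicle replicates 1, 2 and 3. Both groups were tight, and the ratio of means was 0.484, with a log2 difference of -0.99 ± 0.07 (SE, n = 3 per group). Of 29 other sorting nexins none was called (limma; 7 had an unadjusted p under 0.05), although 20 were negative and the median was -0.10. The smallest p was that of Snx6, a part of the retromer coat, at 687 ± 36.4 in DBZ arrays and 822 ± 19.6 in vehicle arrays (SD, n = 3 each; limma, adjusted p = 0.071). Snx2, next to Snx24 on the chromosome among measured genes, differed by -0.04 (95% interval -0.44 to 0.36). Ppic, on the other side, differed by 0.88 (95% interval 0.40 to 1.37) with groups that did not overlap, and was not called (limma, adjusted p = 0.0595).

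**Figure D2:**
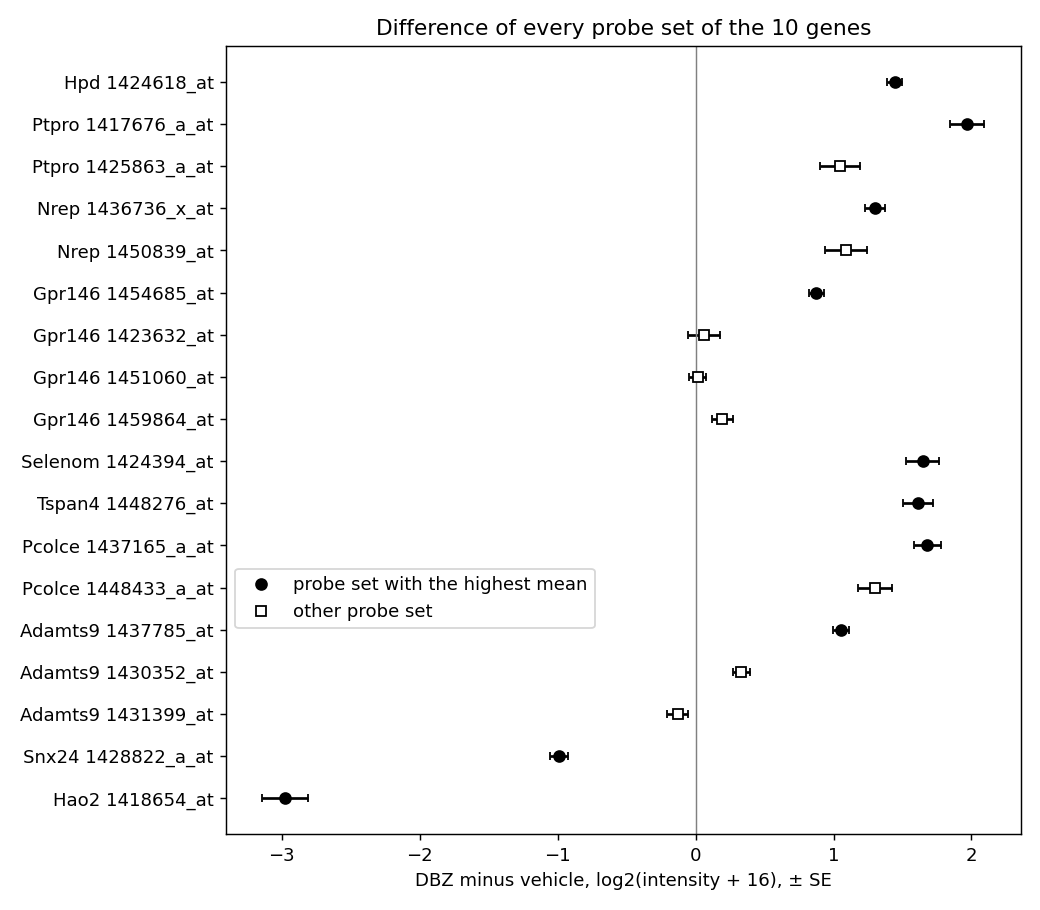
Difference of DBZ minus vehicle arrays on the log2(intensity + 16) scale for all 18 probe sets of the 10 genes, with the SE from a fit over all probe sets (n = 3 arrays per group). The other probe sets of Ptpro, Nrep and Pcolce stand on the same side as the chosen one by over 1 unit, while those of Gpr146 and Adamts9 lie between -0.13 and 0.33.

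Of the 10 genes 5 have more than 1 probe set, and 8 further probe sets stand beside the chosen ones. In 5 of these 8 the groups did not overlap and the sign was that of the chosen probe set. Over all genes, with 1 probe set each, the groups did not overlap for 33.2% in either direction. With DBZ arrays higher, as in these 5, the share was 17.3%. Of the 5, those of Gpr146 (16.9 to 20.4 in DBZ arrays, 12.2 to 16.4 in vehicle arrays) and Adamts9 (19.3 to 21.8 and 11.7 to 14.7) were dim. A brighter further probe set of each of these 2 genes had overlapping groups. Hpd, Selenom, Tspan4, Snx24 and Hao2 have 1 probe set each.

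**Figure D3:**
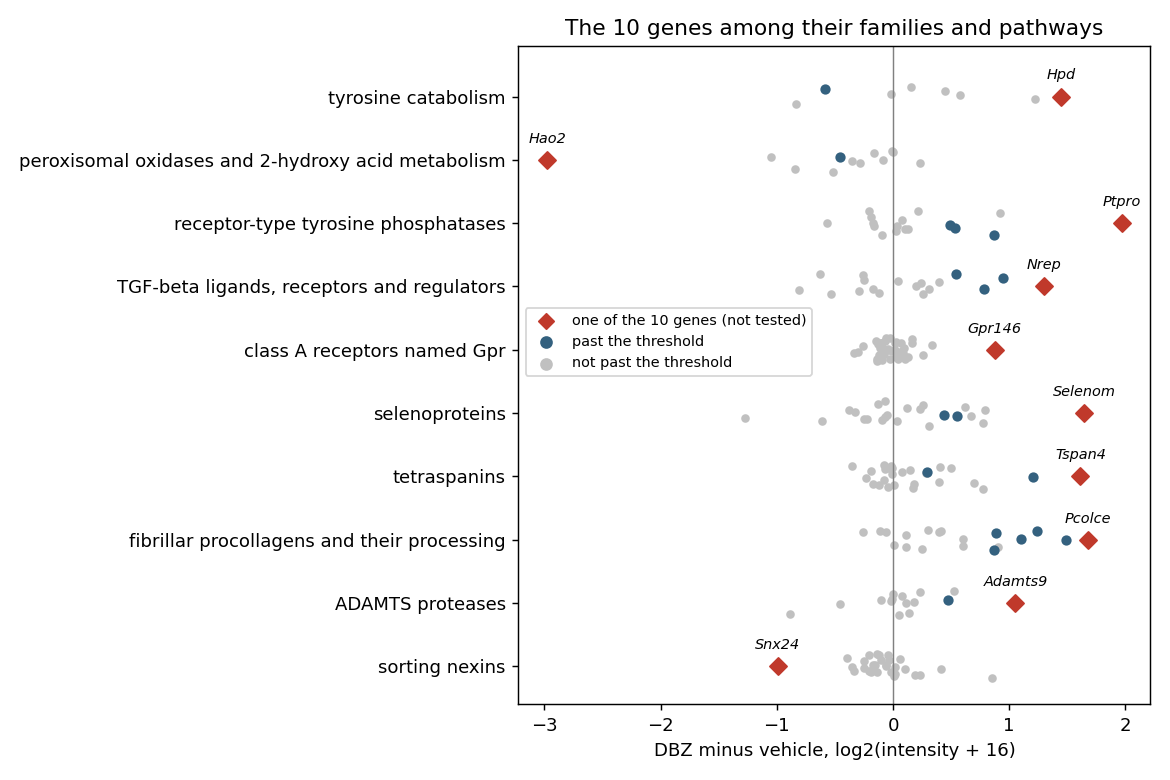
Difference of DBZ minus vehicle arrays on the log2(intensity + 16) scale for each of the 10 genes (diamonds) and the other measured genes of its family or pathway (points, blue where past the threshold). The 10 genes lie at the outer edge of their lists, which follows from their choice, and the fibrillar procollagen list has the highest median, 0.41.

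Within groups the 10 genes differed in evenness. The within-group SD on the log2 scale was 0.04 for Gpr146, below that of all but 7.34% of genes, and 0.24 for Hao2, above that of 85.2%. Adamts9 and Snx24 were also among the even ones, at the percentiles 15.7 and 19.3, and Nrep stood at 30.8. Pcolce, Tspan4, Selenom and Ptpro were nearer the middle of the array or above it, at 54, 60.8, 69.9 and 72.4. With 1 array left out at a time, the log2 difference of Hpd ranged from 1.42 to 1.48, that of Gpr146 from 0.84 to 0.90 and that of Snx24 from -1.03 to -0.95. The widest ranges were those of Hao2, from -3.15 to -2.85, and Ptpro, from 1.85 to 2.08.

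All 10 genes were called in each of the 6 fits that leave out 1 array, in which 19 to 2032 genes were called in all. Only 18 genes of the 18193 were called in every one of them, 15 higher and 3 lower, and the 10 are among those 18. As the set was chosen from its difference and its stability, this lends it no separate weight.

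Genes that ran most nearly parallel to the 10 were found by the distance between log2 values centred on each gene's mean over the 6 arrays, among genes brighter than the median gene. The closest match was Tecpr1 for Adamts9, at a distance of 0.14, followed by Efna5 at 0.16. Upb1 was nearest to both Pcolce (0.17) and Tspan4 (0.39), with 317 ± 45.1 in DBZ arrays and 87.3 ± 10.3 in vehicle arrays (SD, n = 3 each). The next for Pcolce was Serpinh1 of its own list, at 0.35. Gpr146 had Cdc25b and Igdcc4 nearest, Hpd had Il6st and Apcdd1, and Nrep had Hopx and Tubb6. Selenom had Rab15 and Elapor1 at 0.26 each.

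For Ptpro the nearest genes were Kit at 0.59, with 1176 ± 162 in DBZ arrays and 356 ± 92.3 in vehicle arrays, and Neurod1 at 0.64, with 376 ± 60.2 and 92.8 ± 2.83 (SD, n = 3 each). Snx24 had Gins2 and Rpia, at 0.25 and 0.31. Hao2 had no close match, the nearest being Fbp1, at a distance of 0.95, with 109 ± 64.1 in DBZ arrays and 757 ± 197 in vehicle arrays, and Rdh7 at 1.10 (SD, n = 3 each). With 6 arrays in 2 groups, a short distance says that the centred values are close, chiefly in the size of the difference, and no more. The order of the arrays within a group need not be alike.

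The genes lie on 6 chromosomes, with Hpd, Gpr146 and Pcolce on chromosome 5, Ptpro and Adamts9 on 6, and Nrep and Snx24 on 18. The nearest measured gene on each side of each member was read as well, 20 genes in all. Of these 1 rose and 1 fell, and 18 were not called, where 5.34% of all genes were called. The differences lay between -0.61 and 0.88, the latter that of Ppic beside Snx24. Chid1, beside Tspan4, rose by 0.86 ± 0.17, and Fbxo24, beside Pcolce and dim, fell by 0.42 on the log2 scale (limma, adjusted p = 0.048 and 0.045). With 1 array left out, Fbxo24 lost its call in all 6 fits (limma, adjusted p up to 0.13) and Chid1 in all but the fit without DBZ replicate 1 (up to 0.14). Hsd3b1 and Gm12440, on the sides of Hao2, were dim in both groups, with differences of -0.07 (95% interval -0.23 to 0.09) and 0.05 (-0.10 to 0.20). Eps8, beside Ptpro and bright, averaged 3498 ± 89.2 in DBZ arrays and 3186 ± 261 in vehicle arrays (SD, n = 3 each), a difference of 0.14 with a 95% interval of -0.05 to 0.32.

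**Figure D4:**
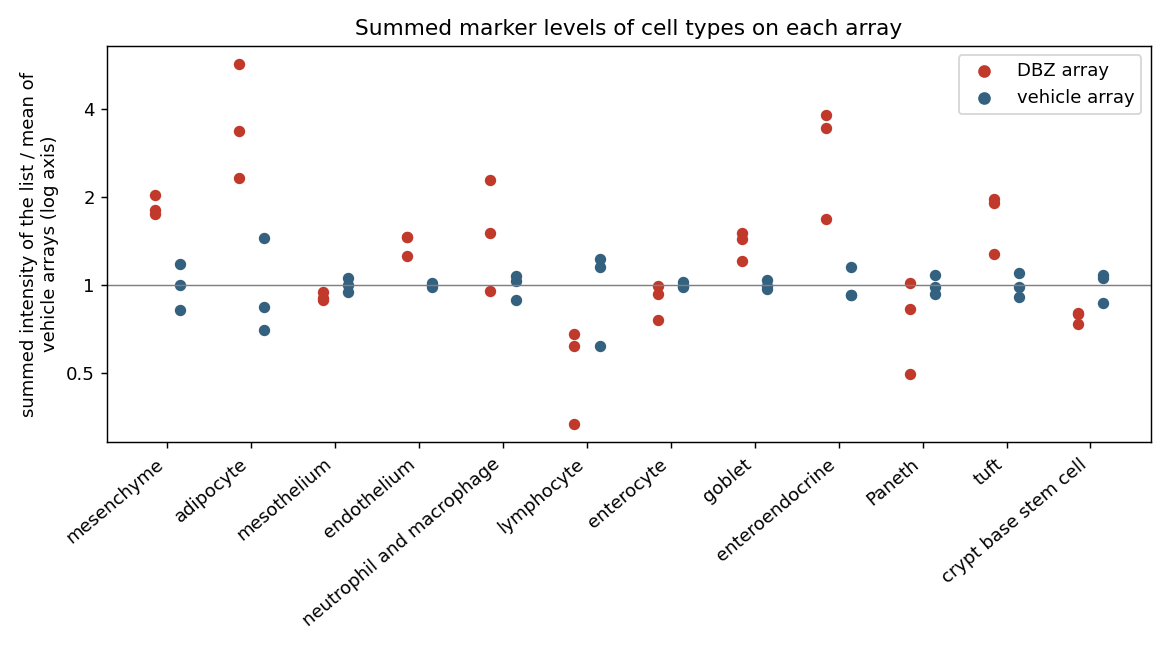
Summed intensity of 12 cell type marker lists on each array, divided by the mean of the vehicle arrays (log axis), with 1 point per array. Mesenchymal, adipocyte, endothelial, goblet, enteroendocrine and tuft sums of the DBZ arrays lie above all vehicle arrays, and the crypt base stem cell sums lie below them, which turns round when Olfm4 is left out, while the tuft sums overlap without Alox5ap.

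The other marker lists were read for the 10 genes as a whole. Adipocyte markers summed to 6319 to 15449 units in DBZ arrays and 1909 to 3937 in vehicle arrays, with 3 of 8 risen and 1 of 8 below the median gene. Endothelial markers summed to 1570 to 1829 and 1230 to 1266, with 2 of 10 risen and 6 of 10 below the median gene, and tuft markers to 947 to 1461 and 678 to 820, with 1 of 8 risen and 6 of 8 below it. Without Alox5ap, the tuft gene that rose, the tuft sums overlapped, at 603 to 1075 in DBZ arrays and 523 to 623 in vehicle arrays. Neutrophil and macrophage markers summed to 5736 to 13765 in DBZ arrays and 5351 to 6487 in vehicle arrays, which overlap, with 3 of 9 risen (S100a8, S100a9 and Lcn2) and 2 of 9 below the median gene. An unadjusted p under 0.05 (limma) was reached by 6 of 8 adipocyte, 7 of 10 endothelial and 4 of 8 tuft markers. The same held for 5 of 9 neutrophil and macrophage markers. Of the 10 mesothelial markers none was called by limma, though 8 had an unadjusted p under 0.05 and 8 had groups that did not overlap, with a median difference of 0.70, and 7 of 10 lay below the median gene. Their sums, 32324 to 34512 in DBZ arrays and 34400 to 38406 in vehicle arrays, overlapped. These sums rest mostly on the brighter markers, among them the keratins Krt19 and Krt8. They say little of the 7 markers below the median gene. Without Krt19 the sums overlapped too, at 22524 to 23741 in DBZ arrays and 23603 to 24173 in vehicle arrays. Paneth sums overlapped as well, at 34488 to 70863 in DBZ arrays and 65105 to 75554 in vehicle arrays. Of 8 Paneth markers 1 rose (Mmp7) and 1 fell (Pnliprp2). Lymphocyte sums, 1866 to 3791 and 3454 to 6867, also overlapped. All 8 lymphocyte markers were negative, and none was called by limma (2 had an unadjusted p under 0.05).

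Crypt base stem cell markers summed to 8503 to 9208 in DBZ arrays and 9970 to 12415 in vehicle arrays, with 2 of 10 risen (Rgmb and Sox9) and 2 fallen (Olfm4 and Ascl2). The lower sum rests on Olfm4 alone: the other 9 markers summed to 8473 to 9189 in DBZ arrays and 6343 to 7933 in vehicle arrays, the opposite order. The part of these cells in the values of the 10 genes was not tested.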

How the data were processed

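Per the labels' protocols, a 3' IVT kit was used to amplify and label the RNA, which went onto Affymetrix arrays. The authors deposited probe set intensities on a linear scale, on a common level between arrays; how background and scale were treated is not given in the sources used here. Of 45101 probe sets 34945 had a single gene symbol in the platform's annotation, 932 had several and 9160 none, beside 64 array controls; only the first were used, by gene the one with the highest mean.

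The fit took log2(intensity + 16) of the 18193 genes with limma 3.58.1 in R 4.3.3 (lmFit, eBayes, two-sided), with DBZ minus vehicle as the only term. A gene was called at a Benjamini-Hochberg adjusted p under 0.05 over the whole table. SE is moderated and SD is of intensities. The test was tested on simulated data. An exact permutation test of 3 against 3 arrays cannot go below p = 0.1, so none is given. Arrays were grouped by their titles.

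The 10 genes and all lists were chosen with earlier results of these data known. The text names the 10, 4 check genes, up to 2 family genes per direction past the threshold (else the smallest p) and the 2 nearest patterns per gene. Neighbours on the chromosome and the promoter motifs were added after values had been seen. No genome was used. The alternatives were other normalizations, pseudocounts of 1 and 64, a filter that keeps genes brighter than the median gene, other probe set choices, an intensity trend, array weights, a block for replicate number, and each array left out. No coordinates are given for array features.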

Additional observations from a re-analysis of the deposited data

How the results depend on the processing

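The 10 differences were recomputed under 16 alternatives, 158 values in all, since Gpr146 and Adamts9, with means below the median gene, drop out under the filter that keeps brighter genes. None changed sign, 137 moved by less than 1 within-group SD and 21 by more, mainly with the pseudocount and the choice of probe set. All 10 stayed called wherever they were tested (8 under the filter), which is no independent support.

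Over all genes, 972 calls became 440 with a pseudocount of 64, 2690 with array weights and 19 to 2032 with 1 array left out. They were 49, 19 and 38 without vehicle replicate 1, 2 and 3. The 18 calls among family genes became 6, 43 and 0 to 33 in the same alternatives (limma; at least 44 family genes had an unadjusted p under 0.05 with any array left out). The causes were not tested. In a setting chosen after seeing the data, each marker list was summed without the gene that differed most: the log2 ratio of the crypt base stem cell sums, DBZ over vehicle, turned to 0.32 without Olfm4, against -0.36 with it.

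With the replicate number as a block, 889 genes, 14 family genes and all 10 members were called. Deviations from the group means correlated at -0.0234, 0.322 and 0.236 between DBZ and vehicle arrays of replicate numbers 1, 2 and 3. Between arrays of unlike numbers the correlations ran from -0.349 to 0.0402. Whether the numbers pair the mice cannot be told from these values. Dim values, such as Hao2 in DBZ arrays and Gpr146 and Adamts9 in vehicle arrays, limit how well a fold is known.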
